A study of Mus musculus with 6 samples.

Results

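The genes that build and run the DNA replication machinery were followed in primary pericytes of the mouse, which sit on the outer wall of capillaries. The set holds 51 genes of origin licensing, the replicative helicase, the polymerases, the sliding clamp loader and lagging strand enzymes, deoxynucleotide (dNTP) supply, and fork protection with chromatin assembly. It was fixed by gene symbol, with earlier results of these data known. All 51 were found among the 20239 genes measured, each by 1 probe set. Gene expression was measured on 1-colour arrays of total RNA from pericytes of C57BL/6 background. There were 3 control arrays and 3 arrays of pericytes given 100 ng/ml of PDGF-BB, a dimer of platelet-derived growth factor B chains, in each case after 5 days. PDGF-BB is the main ligand of the receptor PDGFR-β, through which endothelial cells recruit pericytes, and a classical mitogen of mesenchymal cells. The labels give no genotype other than the strain and do not say what the control cells received. Nor do they say whether the arrays of a group stem from independent cultures, so each p-value measures only how these samples varied, and that variation may be technical.

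Replication starts in 2 stages that the cell cycle keeps apart. In G1 the origin recognition complex, with Cdc6 and Cdt1, loads the Mcm2 to Mcm7 helicase onto origins, which is called licensing. In S phase kinases, among them Cdc7 with Dbf4, and the helicase partners Cdc45 and GINS activate it, and polymerases, clamp and dNTP enzymes copy the strands. Many of these genes are transcribed in late G1 by E2F factors, so that resting cells hold little of their mRNA and cycling cells hold more.

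Values are log2 expression values after RMA, a change is PDGF-BB minus control on that scale, and a gene was called when its Benjamini-Hochberg adjusted p over all 20239 genes lay under 0.05 in limma's moderated test. The arrays were alike in overall level, with medians of 8.43 to 8.46, and correlated across genes at 0.994 to 0.996 within a group. Of 10 pericyte markers 8 lay above a background level of 7.56, with Pdgfrb, the receptor itself, at 12.98 and Cd248 (endosialin) at 12.17 in control, while Des and Abcc9 lay under it and Rgs5 at 7.77 close to it. By their control means 7 of 8 endothelial, 6 of 8 macrophage and 4 of 6 epithelial markers lay under this level. Among them were Pecam1, Adgre1, Ptprc and Epcam, which stayed under it with PDGF-BB. Above it in control lay the endothelial Cldn5 (7.64), the macrophage markers Cd68 (9.39) and Cd14 (8.41), and the epithelial Krt8 (8.20) and Cldn4 (8.30). The endothelial cadherin Cdh5 measured 7.23, 7.14 and 7.21 in control and 7.80, 7.88 and 7.23 with PDGF-BB, so that its PDGF-BB mean of 7.64 lay above the level (adjusted p = 0.10, limma). The mean level of the pericyte markers was 9.10 to 9.19 on the control arrays and 9.11 to 9.20 on the PDGF-BB arrays. That of the macrophage markers was 6.88 to 6.91 and 6.83 to 6.95, and that of the endothelial markers 6.84 to 6.86 and 6.82 to 6.92. The epithelial markers spread most with PDGF-BB, at 7.41 to 7.45 in control and 7.33 to 7.65 with PDGF-BB. Krt18 among them reached 8.19 on PDGF-BB array 2 against 7.53 and 7.29 on the others. Its mean went from 7.26 in control, under the level, to 7.67 with PDGF-BB, above it (adjusted p = 0.23, limma). Of the macrophage markers Cd14 rose and Cd68 and Lyz2 fell, and of the pericyte markers Anpep rose and Cd248 fell. With the replicate block 2 pericyte markers rose and 2 fell, since Cspg4 (log2 change 0.91, adjusted p = 0.015 against 0.065 without the block) and Mcam (-0.52, 0.023 against 0.15) then passed too. The part of these cells in the results was not tested.

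PDGF-BB raised 48 of the 51 replication genes and lowered 0, where 10.1% of all genes rose and 11.4% fell. Blocking on the replicate number gave the same 48 and 0, where 10.9% and 12.5% of all genes were called. The median change of the 51 genes was 1.13, against -0.02 over all genes, and the changes ran from -0.15 (Orc3) to 1.78 (Mcm3). At least a 2-fold increase was called in 29 of them, against 2.04% of all genes. In 49 of the 51 genes the 3 PDGF-BB arrays lay above all 3 control arrays, as they did in 16.9% of all genes. Among the 500 largest increases on the array, which are 2.47% of all genes, 34 were replication genes. The genes that did not pass were Orc3, Orc5 and Rpa3. Of the 48 called genes, 42 passed in each of the 6 fits that left out 1 array. In RNA from whole cultures, more cells in S phase and more of these mRNAs in each cell cannot be told apart.

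**Figure D1:**
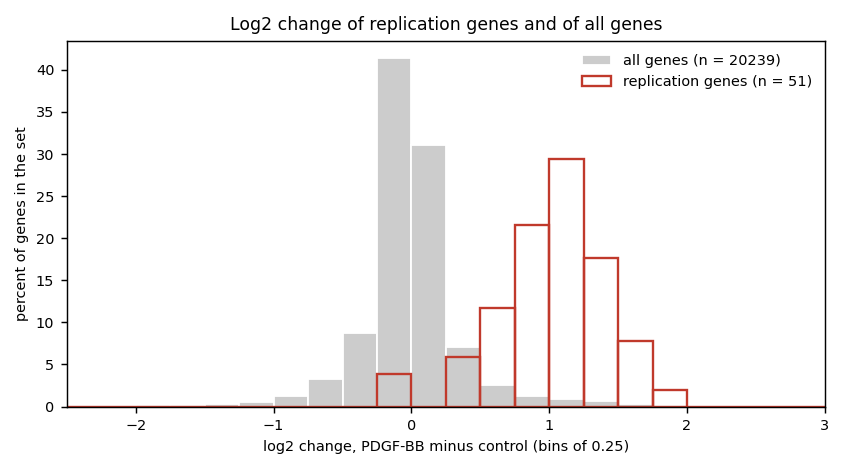
Log2 change with PDGF-BB (x axis, bins of 0.25) as the percent of genes in each bin (y axis), for all 20239 genes in grey and the 51 replication genes outlined in red. The replication genes centre on 1.13 and all genes on -0.02.

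**Figure D2:**
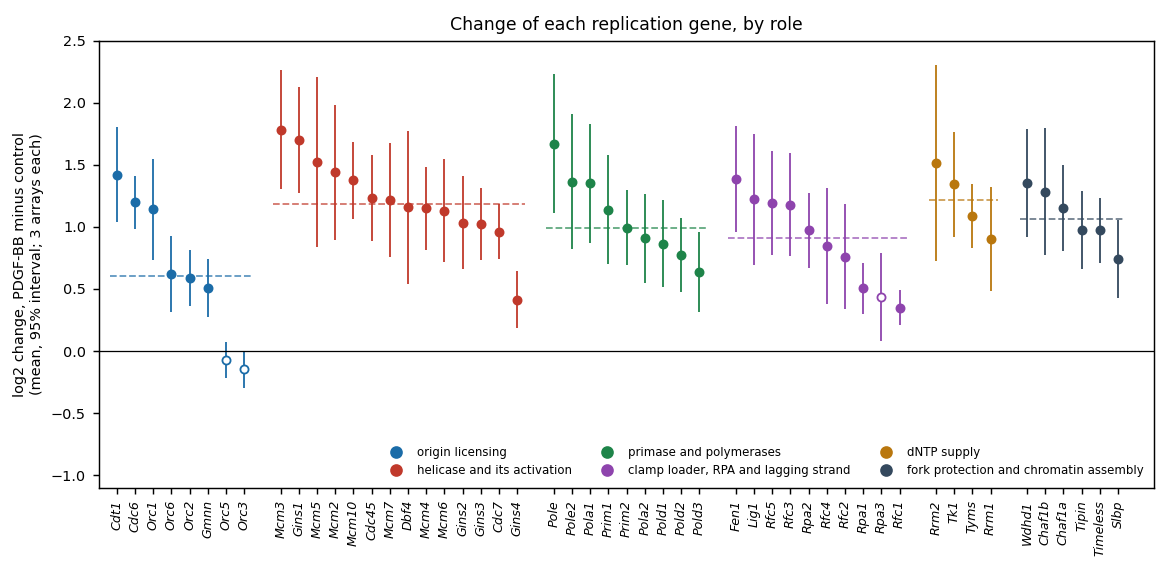
Log2 change of each of the 51 replication genes (y axis; points are means over 3 against 3 arrays and bars 95% intervals of the limma fit), grouped by role along the x axis. Filled points passed the test, open points did not, and a dashed line marks each role's median, from 0.60 for origin licensing to 1.22 for dNTP supply.

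The promoters of these genes were read for the E2F motif, and upstream stretches that hold it are shown here. The genes were fixed by symbol with earlier results of these data known. How often the motif occurs in them may therefore depend on their change with PDGF-BB. RefSeq's promoter table (GRCm38.p6) held 49 promoters of 42 of the 51 genes, each from 250 bases before the transcription start to 50 after it. The E2F motif was searched as 4 words of 8 bases (TTTCCCGC, TTTCGCGC, TTTGCCGC and TTTGGCGC) on both strands, where words may overlap. The 170 bases before the start held a whole E2F word in 9 stretches. Those of 6 genes are printed, with the E2F words, or their reverse complements, in capitals, and those of Mcm7, Rfc3 and Gins3 are not. Mcm6 (chr1:128359706-128359875, minus strand) and Mcm5 (chr8:75109339-75109508, plus strand) encode helicase subunits and each hold a pair of overlapping words, Mcm6 with a further word nearer the start. Cdc6 (chr11:98907981-98908150, plus strand) and Orc1 (chr4:108579284-108579453, plus strand) belong to licensing, and Pola1 (chrX:93632156-93632325, minus strand) is the catalytic subunit of DNA polymerase α. Orc3 (chr4:34614943-34615112, minus strand) is shown because it also has a word but was not called.
Mcm6: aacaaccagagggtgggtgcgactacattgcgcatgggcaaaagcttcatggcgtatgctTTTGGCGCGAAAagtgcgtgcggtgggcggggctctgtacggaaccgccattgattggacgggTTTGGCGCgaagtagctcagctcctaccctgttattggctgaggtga
Mcm5: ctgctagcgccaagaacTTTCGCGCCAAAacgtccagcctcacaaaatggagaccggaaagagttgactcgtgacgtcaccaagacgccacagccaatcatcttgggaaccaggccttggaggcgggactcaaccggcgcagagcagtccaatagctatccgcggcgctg
Cdc6: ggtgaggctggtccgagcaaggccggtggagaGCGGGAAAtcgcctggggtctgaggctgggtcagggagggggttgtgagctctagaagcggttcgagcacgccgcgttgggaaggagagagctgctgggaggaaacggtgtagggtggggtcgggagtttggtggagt
Orc1: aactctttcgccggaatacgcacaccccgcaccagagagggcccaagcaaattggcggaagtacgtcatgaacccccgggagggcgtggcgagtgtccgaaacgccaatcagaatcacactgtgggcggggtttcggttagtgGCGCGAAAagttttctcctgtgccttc
Pola1: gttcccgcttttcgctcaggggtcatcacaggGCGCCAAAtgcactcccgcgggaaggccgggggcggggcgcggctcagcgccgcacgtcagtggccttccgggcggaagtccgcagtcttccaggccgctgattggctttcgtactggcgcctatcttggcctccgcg
Orc3: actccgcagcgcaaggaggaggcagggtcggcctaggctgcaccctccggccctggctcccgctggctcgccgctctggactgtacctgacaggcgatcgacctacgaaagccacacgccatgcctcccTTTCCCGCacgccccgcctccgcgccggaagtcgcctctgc

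An E2F word was present in 15 of the 49 promoters (30.6%), against 2.26% of all 32851 promoters in the table and 2.98% of the 19186 that belong to genes on the array. The word TTTCCCGC occurred in 16.3% of the promoters of replication genes and 1.07% of all promoters, TTTCGCGC in 12.2% and 0.323%, and TTTGGCGC in 12.2% and 0.514%. TTTGCCGC occurred in 0 of 49, and in 0.441% of all. These promoters were also richer in G and C, with a median of 61.3% against 57.3% in promoters of genes on the array and 52.7% over the table, which bears on words of this composition. In 5 genes (Mcm3, Mcm5, Mcm6, Mcm7 and Rfc3) a promoter held more than 1 word, and 14 of the 21 matches began within 100 bases before the start or after it. The CCAAT box (CCAAT, both strands), the site of the factor NF-Y, was found in 51.0% of the 49 promoters and 37.4% of all. The CHR element of late cell cycle genes (TTTGAA, both strands) was found in 16.3% of the 49. Its share was 17.9% in all promoters and 14.9% in those of genes on the array.

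The 15 genes with an E2F word had a median change of 1.20 (from -0.15 to 1.78), and 14 of them rose. The 27 without a word had a median change of 0.97 (from -0.08 to 1.51), and 25 of them rose, among them Rrm2, Fen1, Tk1 and Wdhd1. A match is a description of letters, and its absence says only that these words are not in this window. The remaining 9 genes, among them Pole, Gins1 and Mcm4, were not read.

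**Figure D3:**
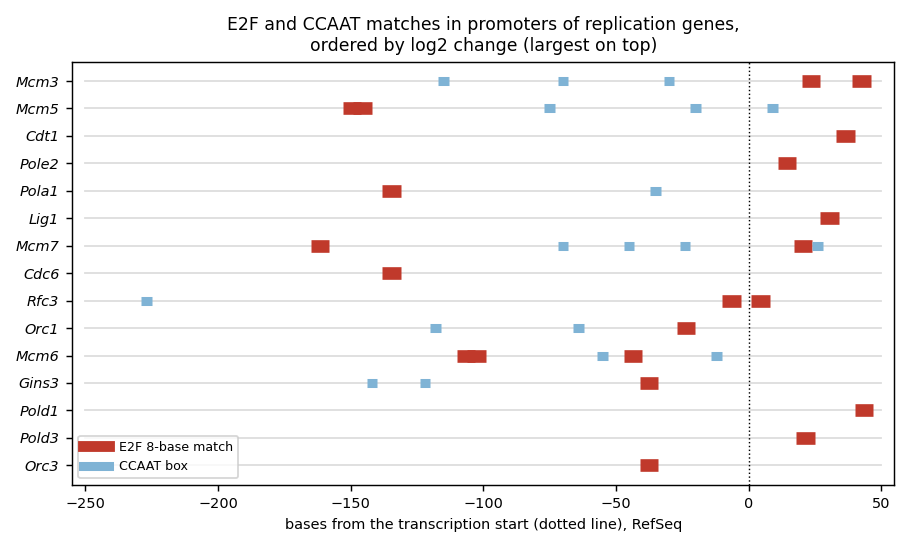
Position of E2F words (red) and CCAAT boxes (blue) relative to the transcription start (x axis, in bases, dotted line at the start) in the promoters of the 15 genes with an E2F word, 1 row per gene, ordered by log2 change from Mcm3 (1.78) to Orc3 (-0.15). The words lie on either side of the start, from position -165 in Mcm7 to position 47 in Pold1. A row joins all promoters of its gene, each measured from its own start. In Mcm7 the CCAAT box at position -47 lies in a promoter without an E2F word.

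Among the 8 licensing genes, the loaders Cdc6 and Cdt1 and the large origin recognition subunit Orc1 had the largest increases, and 6 of the 8 rose (median change 0.60). Cdc6, the ATPase that recruits the helicase to the origin (Entrez gene 23834), measured 8.01, 8.02 and 7.74 on control arrays 1 to 3 and 9.06, 9.19 and 9.12 on PDGF-BB arrays 1 to 3. It rose 2.29-fold (log2 change 1.20, SE 0.09, adjusted p = 7.2e-04, limma), the smallest p of the 51 genes. Every PDGF-BB array lay more than 1 log2 unit above every control array. Cdt1, which brings the helicase to Cdc6 (Entrez gene 67177), measured 10.03, 9.87 and 9.48 in control and 11.17, 11.44 and 11.03 with PDGF-BB, a 2.68-fold rise (1.42, SE 0.16, adjusted p = 0.0022). Its inhibitor geminin, Gmnn, measured 6.10, 5.84 and 5.71 against 6.39, 6.41 and 6.37 (log2 change 0.51, SE 0.10, adjusted p = 0.012). The groups did not overlap, but both geminin means lay under the background level, so no fold is given for it.

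The subunits of the origin recognition complex (ORC) did not all pass the test. Orc1, the ATPase subunit that joins the complex in G1 (Entrez gene 18392), measured 7.62, 7.07 and 6.96 in control and 8.21, 8.46 and 8.40 with PDGF-BB. It rose at least 2.21-fold (log2 change 1.14, SE 0.17, adjusted p = 0.0048), a lower bound because its control mean of 7.22 lay under background. Orc2, of the core complex, rose by 0.59 log2 units and Orc6, the smallest subunit, by 0.62. Orc5, another core subunit, measured 9.84, 9.94 and 9.82 in control and 9.75, 9.79 and 9.85 with PDGF-BB, groups that overlap (log2 change -0.08, 95% interval -0.22 to 0.07, adjusted p = 0.47). Orc3 measured 11.19, 11.16 and 11.05 against 11.03, 10.96 and 10.96 (log2 change -0.15, SE 0.06, adjusted p = 0.15). Its PDGF-BB arrays all lay below the control arrays, by less than the test needed. Orc4 is not among the 51 genes and was picked once its values were known. It changed little (0.14 log2 units, 95% interval -0.03 to 0.32) and missed the threshold (adjusted p = 0.24). The differences between subunits were not tested.

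All 14 genes of the helicase and its activation rose, with a median change of 1.19, and 12 of them at least 2-fold. The 6 subunits of the Mcm2 to Mcm7 ring rose by 1.13 (Mcm6) to 1.78 (Mcm3) log2 units. Mcm3, a neighbour of Mcm5 in the ring, measured 9.49, 9.14 and 8.60 in control and 10.79, 10.96 and 10.84 with PDGF-BB, a 3.44-fold rise (SE 0.20 log2 units, adjusted p = 0.0022, limma). Mcm2, Mcm4, Mcm5 and Mcm7 rose 2.71-fold, 2.22-fold, 2.87-fold and 2.32-fold. The control arrays were spread more widely than the PDGF-BB arrays here, as in Mcm2 with an SD of 0.51 against 0.05 (n = 3 each).

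The factors that turn the loaded ring into a moving helicase rose as well. Mcm10, which is needed for origin firing (Entrez gene 70024), measured 8.86, 8.50 and 8.36 in control and 9.90, 10.05 and 9.89 with PDGF-BB, a 2.59-fold rise (1.37, SE 0.13, adjusted p = 0.0014, limma). Cdc45, the helicase partner, rose 2.35-fold. Of the 4 GINS subunits, Gins1 had the largest change, from 7.60, 7.21 and 6.91 to 8.70, 9.06 and 9.05, at least 3.25-fold (1.70, SE 0.18, adjusted p = 0.0018) since its control mean of 7.24 lay under background. Gins2 and Gins3 rose 2.05-fold and 2.03-fold. Gins4 had the smallest change of the helicase group, 10.99, 10.87 and 10.69 against 11.23, 11.40 and 11.17, or 1.33-fold (0.41, SE 0.10, adjusted p = 0.024). This call ended in 4 of the 6 fits that left out 1 array, those without control arrays 2 and 3 and without PDGF-BB arrays 1 and 2, where the adjusted p was 0.060 to 0.073. Cdc7, the S phase kinase that phosphorylates the Mcm ring (Entrez gene 12545), measured 8.57, 8.34 and 8.36 in control and 9.24, 9.45 and 9.47 with PDGF-BB, a 1.95-fold rise (0.96, SE 0.09, adjusted p = 0.0015). Dbf4, its activating subunit, measured 9.88, 9.59 and 8.77 against 10.45, 10.63 and 10.64 (2.23-fold, adjusted p = 0.020), with control array 3 well below the others. That call was lost without any 1 PDGF-BB array (adjusted p = 0.055 to 0.067).

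**Figure D4:**
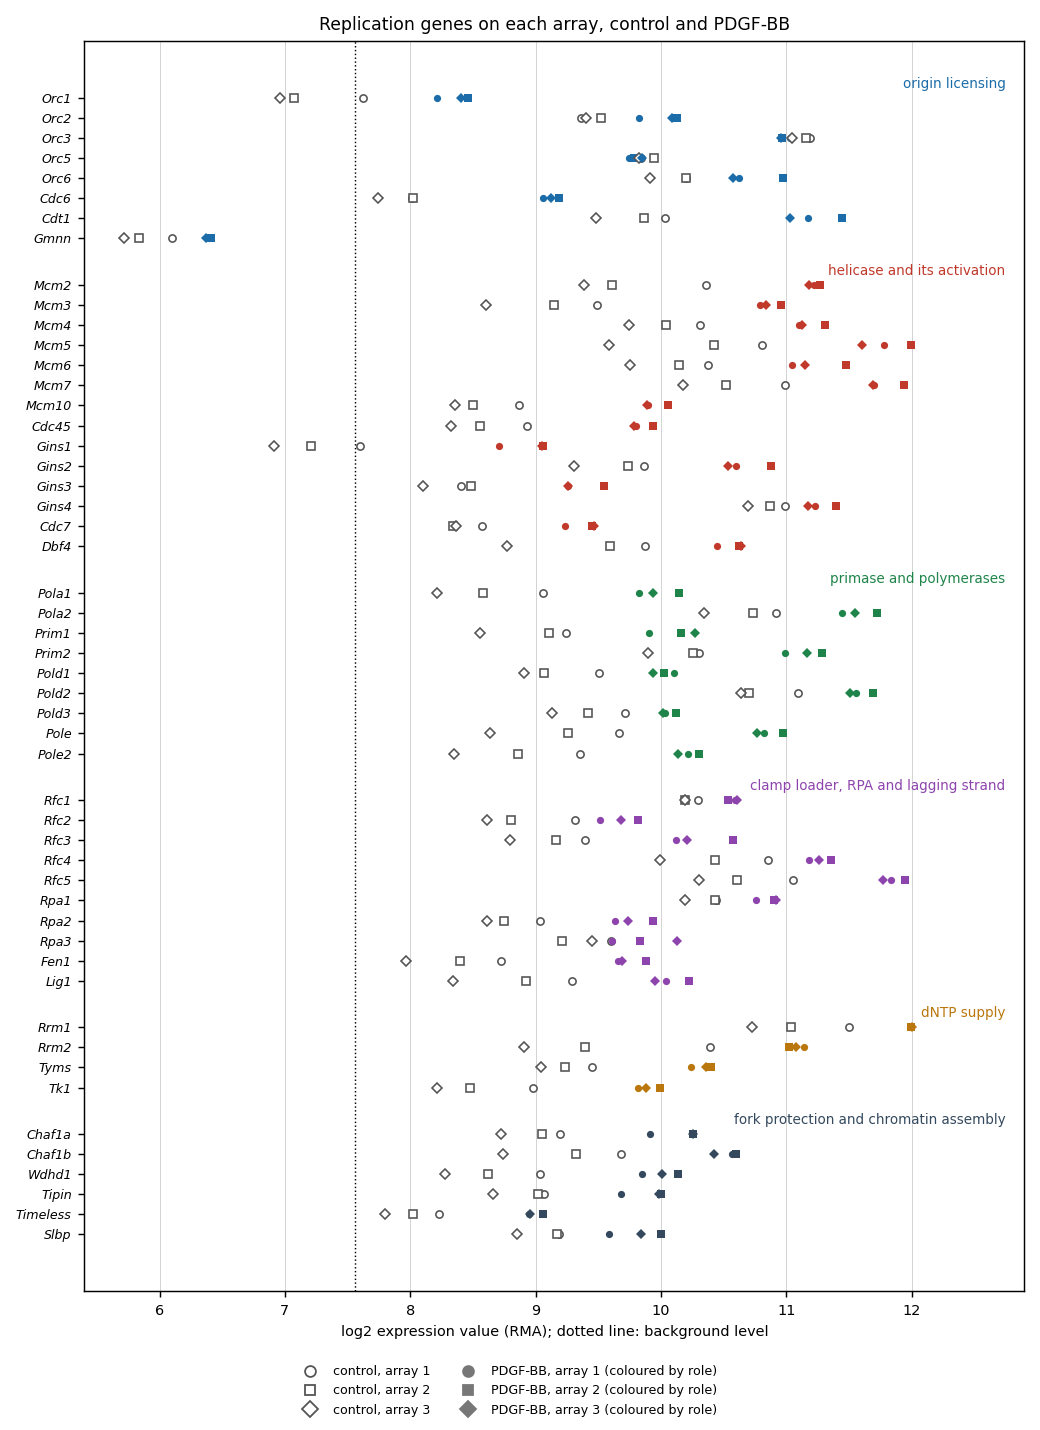
Log2 expression value (x axis) of each of the 51 replication genes on the 3 control arrays (open symbols) and 3 PDGF-BB arrays (filled, coloured by role), 1 row per gene, with circles, squares and diamonds for arrays 1, 2 and 3 and a dotted line at the background level of 7.56. The filled symbols lie to the right of the open ones in 49 rows, and the open symbols are the more spread in 46.

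The 9 genes of primase and the replicative polymerases all rose, by 0.64 (Pold3) to 1.67 (Pole) log2 units with a median of 0.99. In the polymerase α-primase complex, which lays the primers, Pola1 (Entrez gene 18968) measured 9.06, 8.58 and 8.22 in control and 9.83, 10.15 and 9.94 with PDGF-BB. It rose 2.55-fold (1.35, SE 0.20, adjusted p = 0.0048, limma). Prim2, the large primase subunit, measured 10.31, 10.26 and 9.89 against 10.99, 11.28 and 11.16, a 1.99-fold rise (0.99, SE 0.13, adjusted p = 0.0028). Pola2 rose 1.87-fold and Prim1, the catalytic primase subunit, 2.20-fold. Pole, the catalytic subunit of the leading strand polymerase ε (Entrez gene 18973), measured 9.66, 9.26 and 8.63 in control and 10.82, 10.98 and 10.77 with PDGF-BB, a 3.18-fold rise (1.67, SE 0.24, adjusted p = 0.0040). Its lowest PDGF-BB array lay more than 1 log2 unit above the highest control array. Pole2, its second subunit, rose 2.58-fold.

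Polymerase δ, which copies the lagging strand, had smaller changes in these data. Pold1, its catalytic subunit, rose 1.82-fold, and Pold2 1.71-fold. Pold3 measured 9.71, 9.42 and 9.13 in control and 10.04, 10.12 and 10.02 with PDGF-BB, a 1.55-fold rise (0.64, SE 0.14, adjusted p = 0.018). It missed the threshold in 3 of the 6 fits, at 0.054 when control array 2 was left out and at 0.056 and 0.058 when the PDGF-BB arrays 1 and 2 were. The fourth subunit, Pold4, which is not among the 51 genes, went the other way. It measured 11.13, 11.36 and 11.15 in control and 10.52, 10.55 and 10.43 with PDGF-BB, 1.64-fold lower (log2 change -0.71, SE 0.08, adjusted p = 0.0020). Pold4 is known as an accessory subunit that cells degrade upon DNA damage and on entry into S phase. The 95% interval of the change was -0.90 to -0.52 for Pold4 and 0.31 to 0.96 for Pold3. Pold4 was named by its p-value in these same data, and the difference between it and the other subunits was not tested.

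Of the 10 genes of the clamp loader, replication protein A (RPA) and the lagging strand 9 rose, with a median change of 0.91. Fen1, the nuclease that trims Okazaki fragment flaps (Entrez gene 14156), measured 8.72, 8.39 and 7.97 in control and 9.66, 9.88 and 9.69 with PDGF-BB, a 2.61-fold rise (1.38, SE 0.18, adjusted p = 0.0031, limma). Lig1, the ligase that seals the fragments, rose 2.33-fold. Rfc5, a small clamp loader subunit, measured 11.06, 10.61 and 10.30 against 11.84, 11.95 and 11.77, a 2.29-fold rise (1.20, SE 0.18, adjusted p = 0.0046). Rfc3, also a small subunit, rose 2.26-fold. Rfc1, the large subunit, had the smallest increase of all 48 called genes, 1.27-fold, from 10.30, 10.19 and 10.19 to 10.59, 10.53 and 10.61. Its arrays were the most alike of this group, and its call held without any 1 array (adjusted p = 0.0096 to 0.030). Rfc2 and Rfc4 rose 1.70-fold and 1.79-fold (adjusted p = 0.024 for each). Each of these calls held in 2 of the 6 fits that left out 1 array. Rfc2 passed when the array left out was number 1 of either group, and Rfc4 when it was number 1 or 3 of the controls, and elsewhere their adjusted p reached 0.076 and 0.073.

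RPA coats the single strands that the helicase opens. Rpa2, its middle subunit, measured 9.03, 8.75 and 8.61 in control and 9.63, 9.94 and 9.74 with PDGF-BB, a 1.96-fold rise (0.97, SE 0.13, adjusted p = 0.0031, limma). Rpa1, the large subunit, rose 1.42-fold. Rpa3, the small subunit, measured 9.60, 9.21 and 9.45 in control and 9.61, 9.83 and 10.13 with PDGF-BB, so that the groups nearly touch (log2 change 0.43, 95% interval 0.08 to 0.79, adjusted p = 0.088). Its difference between the arrays numbered 1 was 0.01, against 0.62 and 0.68 between those numbered 2 and 3.

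The 4 dNTP supply genes all rose, with a median change of 1.22. Tyms, thymidylate synthase (Entrez gene 22171), measured 9.45, 9.23 and 9.04 in control and 10.24, 10.40 and 10.36 with PDGF-BB, a 2.13-fold rise (1.09, SE 0.11, adjusted p = 0.0016, limma). Tk1, the cytosolic thymidine kinase of S phase, measured 8.98, 8.48 and 8.21 against 9.82, 9.99 and 9.88, a 2.53-fold rise (1.34, SE 0.18, adjusted p = 0.0033). Both show separate groups, with control array 1 the nearest to the PDGF-BB arrays. Ribonucleotide reductase, which makes the dNTPs, joins the large subunit Rrm1 with the small subunit Rrm2. Rrm1 measured 11.50, 11.04 and 10.73 against 11.98, 11.99 and 12.00, a 1.87-fold rise (0.90, SE 0.18, adjusted p = 0.012). Rrm2 measured 10.39, 9.40 and 8.91 against 11.14, 11.02 and 11.08, a 2.86-fold rise (1.51, SE 0.33, adjusted p = 0.019). Its control SD of 0.76 was the widest of the 51 genes, against 0.06 with PDGF-BB. The Rrm2 call was lost without control array 2 or any 1 PDGF-BB array (adjusted p = 0.051 to 0.066). Rrm2b, the p53-induced alternative small subunit and not among the 51 genes, measured 8.77, 8.74 and 8.83 in control and 8.48, 8.36 and 8.41 with PDGF-BB, 1.28-fold lower (-0.36, SE 0.06, adjusted p = 0.0069).

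All 6 genes of fork protection and chromatin assembly rose, with a median change of 1.06. Timeless, which with Tipin steadies the fork (Entrez gene 21853), measured 8.23, 8.02 and 7.80 in control and 8.95, 9.06 and 8.96 with PDGF-BB, a 1.96-fold rise (0.97, SE 0.11, adjusted p = 0.0022, limma). Tipin also rose 1.96-fold. Wdhd1, which couples helicase and polymerase α, measured 9.03, 8.62 and 8.28 against 9.85, 10.14 and 10.01, a 2.56-fold rise (1.36, SE 0.18, adjusted p = 0.0034). Chaf1a, the large subunit of the histone chaperone CAF-1, measured 9.20, 9.05 and 8.72 against 9.91, 10.26 and 10.25, a 2.22-fold rise (1.15, SE 0.15, adjusted p = 0.0027), and Chaf1b rose 2.43-fold. Slbp, which binds the stem-loop of histone mRNAs, had the smallest change here, from 9.19, 9.17 and 8.85 to 9.59, 10.00 and 9.84, or 1.67-fold (0.74, SE 0.13, adjusted p = 0.0086). In each of these 6 genes the 3 PDGF-BB arrays lay above all 3 control arrays, as in 16.9% of all genes.

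The control arrays differed from each other in these genes more than the PDGF-BB arrays did. The SD was larger in control in 46 of the 51 genes, as in 53.8% of all genes, and its median was 0.29 against 0.12 (0.09 and 0.08 over all genes). Control array 1 was the highest of the controls in 47 genes and control array 3 the lowest in 47, where 31.5% and 33.1% of all genes had that order. The median deviation from the control mean was 0.28 on control array 1, 0.01 on array 2 and -0.29 on array 3. Between arrays of the same number the median difference was 0.71, 1.16 and 1.38 for the numbers 1, 2 and 3, against 0.01, -0.01 and -0.05 over all genes. The difference was smallest between the arrays numbered 1 in 49 of the 51 genes (28.4% of all genes). A set of 39 mitosis genes, of which 34 rose, against 10.1% of all genes, had a median change of 1.08. Their median differences were 0.55, 0.88 and 1.72, and control array 3 was the lowest control in 38 of them. What set the control arrays apart was not tested. The median change of the 51 replication genes was 1.24 without control array 1 and 0.93 without control array 3.

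**Figure D5:**
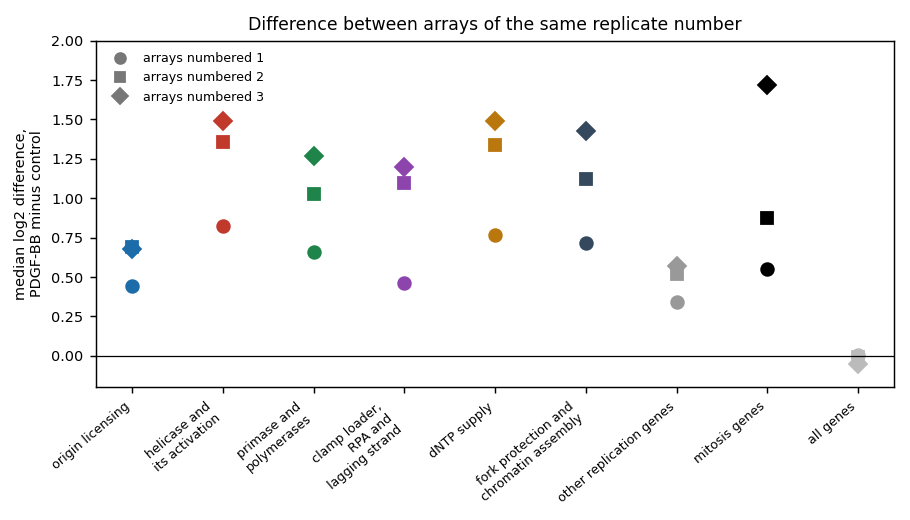
Median log2 difference, PDGF-BB minus control, between arrays of the same replicate number (y axis), for each role of the replication genes, the other replication genes, the mitosis genes and all genes (x axis), with circles, squares and diamonds for the numbers 1, 2 and 3. The arrays numbered 1 give the smallest difference in each of the replication and mitosis sets, and all genes lie near 0.

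Other genes of DNA replication did not all rise. Of 52 such genes listed, 49 were measured, of which 28 rose, 2 fell (Pold4 and Rrm2b) and 19 did not pass. Their median change was 0.48. These lists, like the replication set above, were chosen with earlier results of these data known. Orc4, Pold4 and Rrm2b stand in these lists, although other subunits of their complexes stand in the set. A contrast between the lists and the set may therefore come from how the genes were sorted, and it was not tested. Over all genes on the array 10.1% rose and 11.4% fell. Of the listed genes in licensing control and origin firing 9 of 15 rose. Mtbp, a partner of the firing factor Ticrr, rose by 1.58 log2 units, from 8.19, 8.10 and 7.74 to 9.44, 9.68 and 9.67 (SE 0.13, adjusted p = 9.0e-04, limma), and Skp2, the receptor of a ubiquitin ligase that targets Cdt1, 1.84-fold. Dtl, the receptor of the other ligase that destroys Cdt1 in S phase and named after its value was seen, rose 2.79-fold. Ddb1 and Cul4a, further subunits of that ligase also named after their values were seen, had changes of -0.04 and 0.00 and did not pass. Of those on polymerases, clamp and lagging strand 9 of 14 rose, among them Atad5, which unloads the clamp (2.26-fold), and Dna2, a flap nuclease (2.16-fold). Rnaseh2a, a subunit of the nuclease that removes RNA primers, passed at 0.045 but not under the replicate block (adjusted p = 0.058).

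Of the other dNTP pool genes 5 of 12 rose and 1 fell. Dtymk, which phosphorylates dTMP, rose 1.62-fold (adjusted p = 0.0030, limma) and Dut, which removes dUTP, 1.83-fold (adjusted p = 0.0075). Samhd1, the dNTP hydrolase, had a change of 0.07 (95% interval -0.19 to 0.32) and Tk2, the mitochondrial thymidine kinase, of -0.20 (-0.38 to -0.03, adjusted p = 0.098), both named after their values were seen. Of the other fork and chromatin assembly genes 5 of 8 rose. Asf1b, a histone chaperone of proliferating cells, measured 10.07, 9.76 and 9.21 in control and 11.55, 11.85 and 11.44 with PDGF-BB, a 3.82-fold rise (1.93, SE 0.22, adjusted p = 0.0020). Its paralog Asf1a had a change of 0.25 (95% interval -0.01 to 0.51, adjusted p = 0.16) and is named after its value was seen. Clspn, the checkpoint adaptor claspin at the fork, rose 2.10-fold (adjusted p = 0.0026). Under the replicate block 27 of the 49 genes rose and 2 fell.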

How the data were processed

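Per the submitters' processing notes the authors used RMA, and the deposited values are on a log2 scale. RMA gives all arrays nearly the same distribution, so a change is measured against the other genes. No source used here gives its version or any filter. Of 21225 probe sets, 20239 have exactly 1 gene symbol in GEO's platform annotation and entered the fit, and the other 986 (4.65%) have none. With 3 arrays in a group, their number limits the precision.

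Groups came from the sample titles. The model was limma (version 3.58.1, R 4.3.3; lmFit and eBayes) with the 2 groups and no other term, two-sided, on the 6 arrays, checked on simulated data. The members and lists were chosen with earlier results of these data known. Genes described with full values are, in each of the 6 roles, the 3 with the smallest p and the 1 with the largest, with Cdt1 and Gmnn, and of each list of other replication genes the 2 called with the smallest p in each direction; the rest are given by their change. Mcm3, Dbf4, Orc3 and Rfc1 are given in full after their values were seen. A fold is the log2 change on the linear scale, written "at least" where the lower mean was under the background level of 7.56. That level is the 90th percentile over 19 markers of blood cells (lymphocytes, mast cells, erythroid cells).

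Titles number the arrays of each group from 1 to 3. Arrays of equal number deviated together from their group means (r = 0.25, 0.32 and 0.25 across genes, against -0.28 to 0.01 for unequal numbers). Deviations within a group cancel out, which by itself pulls the r of unequal numbers down when that of equal numbers is positive. The numbers were used as pairs only in the replicate block and in the differences between arrays of equal number. The main fit, with its SE, intervals and adjusted p, ignored them. No array was a copy of another: within a group the median absolute difference was 0.0896 to 0.105. Promoter sequences are RefSeq's (GRCm38.p6).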

Additional observations from a re-analysis of the deposited data

How the results depend on the processing

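The alternatives were the replicate number as a block, quantile normalization run again, arrays centred on their medians, only the genes above the median signal, all 21225 probe sets, eBayes with trend and robust estimation, and leaving out each array. With the replicate block 48 of the 51 replication genes rose and 0 fell, as without it, and no call among the 51 changed. The count was also 48 after the repeated normalization, the centring, with all probe sets and with the trend. In those settings 9.62% to 10.8% of the genes or probe sets tested rose. Above the median signal 45 of the 48 replication genes left rose, against 19.2% of all genes there. Leaving out 1 array, the count ranged from 42 (without PDGF-BB array 2) to 48 (without control array 1). Over these fits 7.02% to 10% of all genes rose, and 0 replication genes fell in any of them. The 6 genes whose calls were lost there were Gins4, Dbf4, Pold3, Rfc2, Rfc4 and Rrm2. The median change ranged from 0.93 to 1.24 over the same fits and from 1.10 to 1.15 over the other alternatives. Of the other replication genes 21 to 29 rose without 1 array, and 21 rose among those above the median signal. The share of promoters with an E2F word was 18.4% in the 250 bases before the start alone and 24.5% from 100 bases before to 50 after it, against 1.86% and 1.27% of all promoters. Orc3 and Rpa3 did not pass although their groups do not overlap.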
